A study of Mus musculus with 9 samples.

Results

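The comparison set primary brown adipose cultures that received HA155, an inhibitor of autotaxin, against cultures that received only its vehicle, DMSO. The members were chosen by sample title: 3 HA155 samples and 3 control samples, 6 of the 9 arrays in the study. The other 3 arrays came from cultures given lysophosphatidic acid (LPA), and they entered this comparison through the model's estimate of the spread and through the mean over all 9 arrays that the filter on dim genes used. All 9 cultures were grown from male C57BL/6 mice labelled 5 weeks old: interscapular brown fat was digested, the precursor-rich fraction was plated, insulin was added in rising doses, and RNA was taken at about 9 days in vitro. HA155 was given at 2.5 µM and LPA at 5 µM. The labels name no genetic change in any group, and the sample titles number the 9 cultures as subjects 1 to 9 without saying what a subject is or how many animals went into a culture. The design text places the treatment during differentiation whereas the sample labels date it to 9 days in vitro, which leaves the duration of the exposure unsettled. The study set out to find genes regulated by autotaxin and LPA signalling.

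Autotaxin is a secreted lysophospholipase D that makes LPA from lysophosphatidylcholine, and LPA acts on a family of G protein-coupled receptors. Adipocytes are a major source of autotaxin, and added LPA is known to restrain adipocyte differentiation in culture. Brown adipocytes burn fatty acids and glucose in mitochondria that carry the uncoupling protein UCP1, and like most cells they also keep a basal interferon programme, in which factors such as STAT2, IRF9 and IRF7 switch on antiviral genes through a DNA element called the ISRE.

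Levels below are log2 of the deposited array intensity, and a change is the HA155 mean minus the control mean on that scale, with its standard error (SE) from limma and 3 cultures in each group. Of 19858 genes with a probe set of their own, 13335 passed a filter on dim signal (a mean log2 level of 5.59) and were tested. With Benjamini-Hochberg adjusted p under 0.05 in limma, 138 genes differed, which was 1.03% of those tested. HA155 raised 81 of them (0.607%) and lowered 57 (0.427%). The 1.03% is the background for each count of list members called below. The rises ran from 0.27 to 1.16 with a median of 0.47, and the falls from -0.27 to -1.62 with a median of -0.57. Over all genes tested, 1082 had an unadjusted p under 0.05 (8.11%), and the HA155 and control arrays did not overlap for 2236 (16.8%). These shares are the background for such counts below. All 81 rises and all 57 falls showed no overlap, so a separation of the groups described for a called gene is no further evidence. The median change over all genes was 0.0018. Precision was limited by having 3 arrays a group, and an exact permutation test of 3 cultures against 3 cannot give a p under 0.1. The median SE was 0.076, and it pools the spread of all 3 groups, the LPA arrays included. The median standard deviation was 0.107 in the LPA arrays, 0.074 in the controls and 0.054 with HA155.

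**Figure D1:**
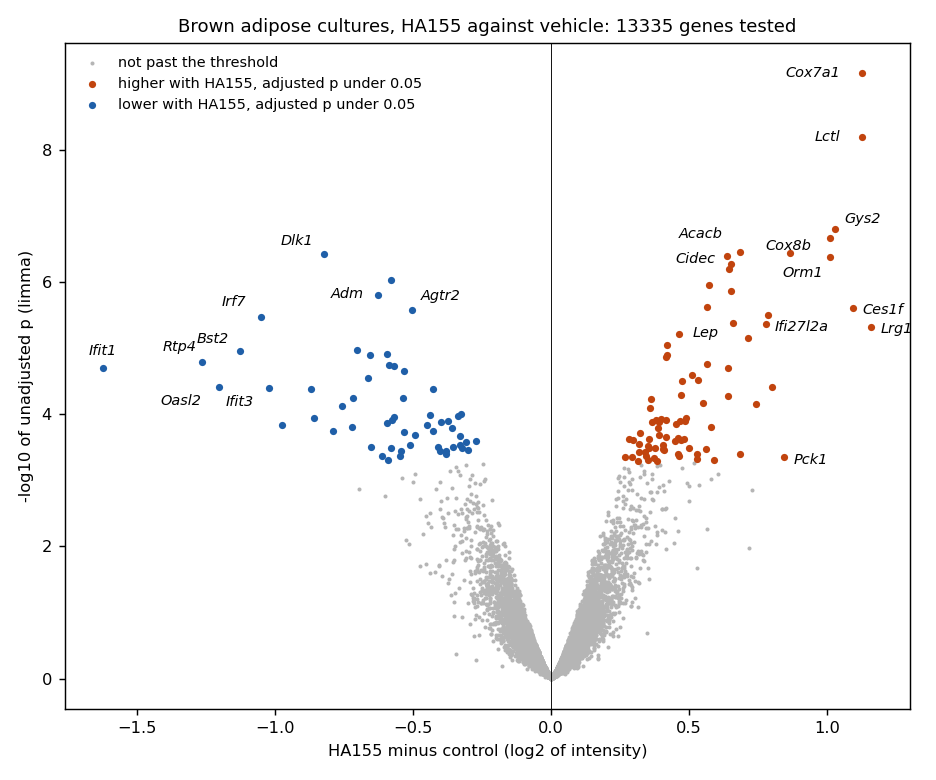
Change with HA155 (x axis, log2 of intensity, HA155 minus control) against the unadjusted limma p (y axis, -log10) for the 13335 genes tested. Orange points are the 81 genes that rose and blue points the 57 that fell at an adjusted p under 0.05; Cox7a1 and Lctl lie highest, and Ifit1 lies farthest to the left at -1.62.

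The clearest group among the falls was antiviral genes of the interferon response. In 5 lists of such genes, chosen with earlier results of these data known, 84 were tested. Of these, 21 fell, 1 rose and 62 did not pass (26.2% called, against 1.03% of all genes tested), with a median change of -0.21. The 21 were Ifit1, Rtp4, Oasl2, Bst2, Irf7, Ifit3, Gbp3, Trim30a, Usp18, Ifi203, Xaf1, Irgm1, Ddx58, Sp100, Ddx60, Gbp7, Slfn8, Stat2, Oas2, Irf9 and Trim25. Over all 84 genes, the median level relative to the control mean was between -0.11 and 0.06 in the control arrays. In the HA155 arrays it was between -0.26 and -0.20. Over the 21, it was between -0.25 and 0.15 in the control arrays and between -0.96 and -0.64 in the HA155 arrays. The 21 were selected by this same difference, so their separation is no further evidence. In bulk RNA, fewer cells of a type and less RNA per cell cannot be told apart.

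The 250 bases before the start of Ifit1, Ifit3, Bst2 and Irf7 are shown because these genes were among the largest falls and because they differ in the ISRE. Capitals mark matches to the ISRE, searched on both strands as GAAA, any 2 bases, and GAAA again (TTTC, any 2 bases and TTTC on the other strand); Irf7 holds no match. The sequences are RefSeq's for GRCm38.p6 and read 5′ to 3′ on the strand of the gene: Ifit1 on the plus strand at chr19:34640639-34640888, Ifit3 on the plus strand at chr19:34583279-34583528, Bst2 on the minus strand at chr8:71537473-71537722, and Irf7 on the minus strand at chr7:141266425-141266674.
Ifit1: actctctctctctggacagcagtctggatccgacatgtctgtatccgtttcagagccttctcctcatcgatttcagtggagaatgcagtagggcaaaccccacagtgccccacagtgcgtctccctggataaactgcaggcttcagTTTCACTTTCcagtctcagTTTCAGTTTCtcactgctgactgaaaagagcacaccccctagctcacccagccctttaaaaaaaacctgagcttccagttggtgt
Ifit3: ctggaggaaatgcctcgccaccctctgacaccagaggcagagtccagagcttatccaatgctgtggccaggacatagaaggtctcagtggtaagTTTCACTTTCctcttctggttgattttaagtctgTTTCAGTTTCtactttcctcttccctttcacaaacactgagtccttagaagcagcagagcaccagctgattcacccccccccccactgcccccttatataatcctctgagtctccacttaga
Bst2: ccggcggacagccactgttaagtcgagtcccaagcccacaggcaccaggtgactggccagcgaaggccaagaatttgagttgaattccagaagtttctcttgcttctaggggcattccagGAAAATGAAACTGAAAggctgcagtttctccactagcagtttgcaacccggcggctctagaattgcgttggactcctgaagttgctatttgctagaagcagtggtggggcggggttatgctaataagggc
Irf7: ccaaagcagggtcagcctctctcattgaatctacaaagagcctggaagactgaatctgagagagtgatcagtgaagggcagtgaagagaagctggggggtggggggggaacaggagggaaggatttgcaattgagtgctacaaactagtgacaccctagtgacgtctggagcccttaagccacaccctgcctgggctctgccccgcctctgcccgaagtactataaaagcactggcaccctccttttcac

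Ifit1 and Ifit3 each held 2 separate ISRE matches, and Bst2 held 2 that overlap in a single run. A promoter sequence was matched for 18 of the 21 interferon-list genes that fell, and 11 of those 18 held the ISRE letters (61.1%). Among interferon-list genes that were tested and did not pass, 8 of 49 held them (16.3%). Among all 27025 genes with a promoter sequence the share was 3.46%, and among the 10522 tested genes with one it was 2.98%. Each gene counted once, as holding the letters if any of its promoters did. Of 62 genes that rose and had a promoter sequence, 2 held the letters (3.23%), Saa3 and Snx10. Of 25 such genes that fell outside the interferon lists, 2 did (8.0%), Lgals9 and Capn6. The interferon-gamma element GAS, searched as TTCNNNGAA on both strands, was held by 3 of 43 genes that fell (6.98%). It was held by 2 of the 18 interferon-list genes that fell (11.1%) and by 9 of the 49 that did not pass (18.4%). The GAS share was 8.13% over all genes with a promoter sequence and 6.93% over tested ones. In Bst2 the GAS match overlaps the ISRE run. These are matches of letters in a fixed window and not measured binding, and many genes of such lists are known to carry the ISRE.

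Ifit1, whose protein binds viral RNA that lacks the host cap, showed the largest fall. Its level was 8.28, 8.45 and 8.14 in control cultures 1, 2 and 3 and 6.68, 6.10 and 7.22 in HA155 cultures 4, 5 and 6, a change of -1.62 (SE 0.23, limma adjusted p = 0.00695). Every HA155 culture lay below every control, with the HA155 cultures spread more widely than the controls. Its relative Ifit3 read 7.43, 7.56 and 6.99 against 6.24, 6.12 and 6.55 (change -1.02, SE 0.15, adjusted p = 0.0116). Bst2, or tetherin, which holds budding virus at the cell surface, read 9.46, 9.53 and 9.00 in the controls and 8.22, 8.19 and 8.20 with HA155 (change -1.13, SE 0.15, adjusted p = 0.00514). The 3 HA155 cultures were nearly equal for Bst2, and control culture 3 was the lowest control for all of Ifit1, Ifit3 and Bst2.

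Other effectors moved the same way. Rtp4, an interferon-induced gene of the receptor transporter family, read 8.81, 8.79 and 8.22 against 7.34, 7.08 and 7.62 (change -1.26, SE 0.17, adjusted p = 0.00646). Oasl2, of the oligoadenylate synthetase family that senses double-stranded RNA, read 8.25, 8.55 and 8.00 against 7.28, 6.70 and 7.21 (change -1.21, SE 0.18, adjusted p = 0.0114). Neither gene's groups overlapped. The remaining effectors that passed, Trim30a, Xaf1, Sp100, Ddx60, Slfn8, Oas2 and Trim25, changed by -0.87 to -0.43. Of 37 effectors tested, 12 fell, 1 rose and 24 did not pass (35.1% called, against 1.03% of all genes tested). A negative change was seen in 35 of the 37.

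Among 24 genes of interferon signalling and nucleic-acid sensing, 5 fell (20.8%, against 1.03% of all genes tested). Irf7, the factor that amplifies type I interferon output, read 7.89, 8.10 and 7.60 in the controls and 6.69, 6.79 and 6.96 with HA155 (change -1.05, SE 0.12, adjusted p = 0.00223). Stat2 and Irf9, which act in the nucleus downstream of the type I interferon receptor, changed by -0.54 (SE 0.11, adjusted p = 0.0407) and -0.51 (SE 0.10, adjusted p = 0.038). All 3 factors were lower in every HA155 culture than in any control. Ddx58, which encodes the RNA sensor RIG-I, changed by -0.72, and Ifi203, a DNA-binding member of the PYHIN family, by -0.79. The receptor chains Ifnar1 (0.08) and Ifnar2 (0.03), the kinases Jak1 (-0.08) and Tyk2 (-0.04), and the factors Irf3 (0.00) and Irf1 (-0.00) did not pass. The sensor Ifih1 changed by -0.40 with no overlap between the groups, but its adjusted p was 0.15. Isg15 was not analysed here.

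Usp18, which removes ISG15 from proteins and restrains the interferon receptor, changed by -0.86 (SE 0.15, adjusted p = 0.024). Together with Trim25, a ubiquitin ligase that acts on RIG-I, it made up the 2 of 5 genes of the ISG15 system that fell. Of 6 large interferon-induced GTPases tested, which attack intracellular microbes, Gbp3 (-0.98), Irgm1 (-0.72) and Gbp7 (-0.59) fell and 3 did not pass. These shares, 40% of the ISG15 system and 50% of the GTPases, stand against 1.03% of all genes tested. The GTPase count was 0 without control culture 1 or 2 or HA155 culture 5 or 6 and 1 without HA155 culture 4; the ISG15 count was 0 without control culture 2 or HA155 culture 4 or 5, and 1 without control culture 1. None of 13 antigen-processing and presentation genes passed, and their median change was -0.02: B2m changed by 0.05, Tap1 by -0.19 and Psmb8 by -0.10. Of the 13, 2 had an unadjusted p under 0.05. Of 8 interferon genes matched on the array, 6 were below the filter, Ifnb1 among them; Ifna5 (-0.00) and Ifnl2 (-0.15) were tested and did not pass.

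Ifi27l2a was the member of the interferon lists that rose. It belongs to the family of small interferon-induced mitochondrial proteins that includes IFI27. Its level was 8.35, 8.50 and 8.29 in the controls and 9.16, 9.09 and 9.21 with HA155, a change of 0.78 (SE 0.09, adjusted p = 0.00257). All 3 HA155 cultures lay above all 3 controls, opposite in direction to the other 21 genes.

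Further genes with known interferon links lay outside the lists and were picked out here after their values were seen. They were Rnf213 (-0.65), Ly6e (-0.57), Phf11d (-0.58), Ifi30 (-0.53), Lgals9 (-0.50) and Zc3hav1 (-0.33). Ly6e, a membrane protein that blocks entry of some viruses, read 10.74, 10.73 and 10.52 against 10.07, 10.12 and 10.10 (SE 0.08, adjusted p = 0.00677). Ifi30, the lysosomal thiol reductase, read 9.25, 9.29 and 9.18 against 8.64, 8.77 and 8.71 (SE 0.08, adjusted p = 0.00747). The chemokine Cxcl9 changed by -0.59 (SE 0.08, adjusted p = 0.00677). A second probe set of Rnf213 also fell, by 0.81, in the fit with no intensity filter (adjusted p = 0.0371).

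**Figure D2:**
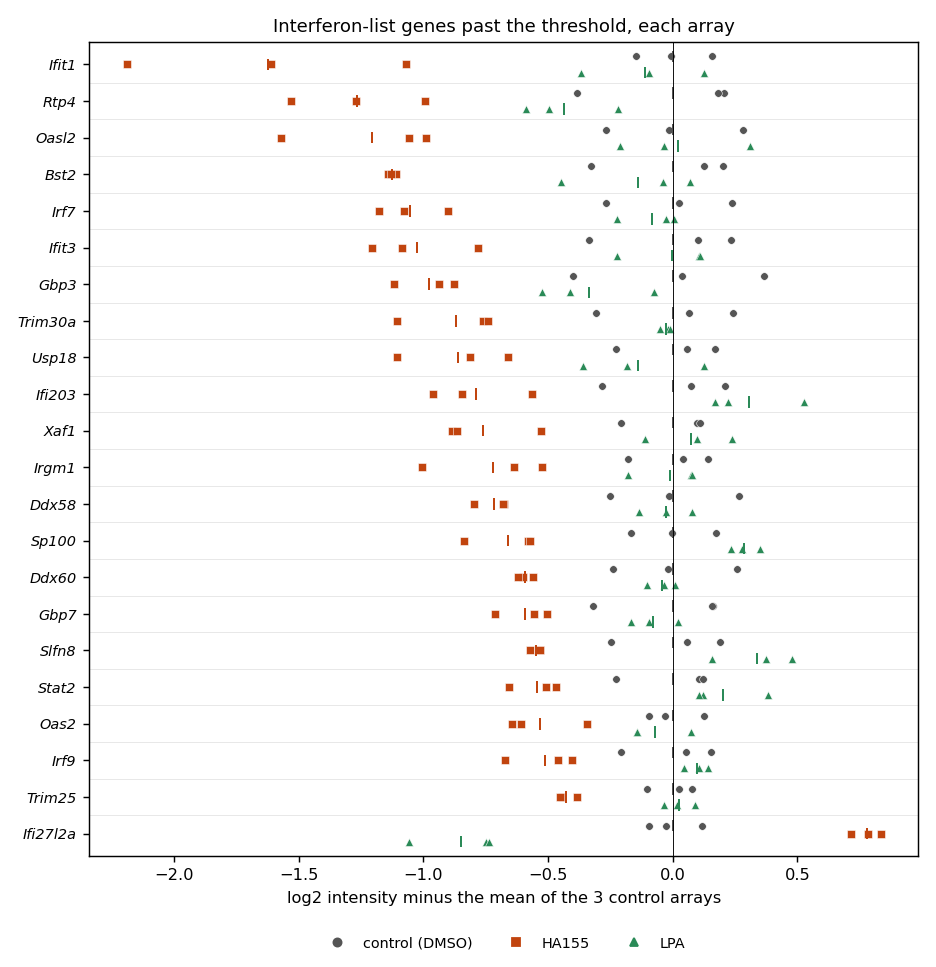
Level of the 22 interferon-list genes past the threshold on each array (x axis, log2 intensity minus the mean of the 3 control arrays), with grey circles for control, orange squares for HA155, green triangles for LPA and short bars for group means. The HA155 squares of 21 genes lie left of all their control circles; Ifi27l2a at the bottom lies to the right at 0.78.

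The interferon count varied with the culture left out, and so did the count of all called genes, given further below. Of the lists' genes, 4 fell without control culture 2, 9 without control culture 1 and 25 without control culture 3; 8 fell without HA155 culture 4, 6 without HA155 culture 5 and 13 without HA155 culture 6. Effectors that fell numbered 2 without control culture 2, 6 without HA155 culture 4 and 5 without HA155 culture 5, and signalling genes numbered 1 or 2 without control culture 1 or 2 or any HA155 culture and 3 without LPA culture 7 or 9. The median change of the 84 genes stayed between -0.25 and -0.20 in those fits and those without an LPA array. Bst2, Irf7 and Rtp4 passed in all 20 alternative fits, Ifit1 and Oasl2 in 19 of 20, where the fit without control culture 2 was the exception (adjusted p 0.0565 and 0.0703). In the LPA cultures, which were compared against the same control arrays, Ifit1 read 8.41, 8.19 and 7.92 and Irf7 read 7.87, 7.84 and 7.64. Those levels overlapped the controls for both genes.

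Leukocyte markers were measured beside these genes. Of 22 macrophage markers matched, 13 were tested and none passed, with a median change of 0.14, 11 of 13 higher and 3 with an unadjusted p under 0.05. Their summed intensity was 1357 to 1518 in the controls and 1636 to 1868 with HA155. Lyz2, the macrophage lysozyme, read 7.78, 8.23 and 8.26 against 8.79, 9.02 and 8.61 (change 0.72, SE 0.23, adjusted p = 0.33). Adgre1, Itgam, Aif1 and Ptprc had means below the filter in every group. The macrophage markers Cd68 (6.62 in the controls, 6.84 with HA155), Csf1r (5.68 and 5.75) and C1qa (6.03 and 6.10) lay above it. Of 21 matched markers of dendritic cells, lymphocytes and granulocytes, 17 were below the filter, Itgax and Siglech among them. The part of leukocytes in the interferon result was not tested.

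Genes of fat storage and fuel use were among the 81 rises. Of 13 tissue isoforms of cytochrome oxidase and related subunits tested, the 2 that rose were Cox7a1 and Cox8b (15.4%, against 1.03% of all genes tested). Both are typical of brown fat, heart and muscle. Cox7a1 read 8.78, 8.78 and 8.78 in the controls and 9.88, 9.86 and 9.98 with HA155, a change of 1.13 (SE 0.06, adjusted p = 8.96e-06). Cox8b read 8.38, 8.16 and 8.28 against 9.17, 9.28 and 9.39 (change 1.01, SE 0.09, adjusted p = 0.000609). The mean difference was 2.18-fold for Cox7a1 and 2.01-fold for Cox8b, and every HA155 culture lay above every control. The other 11 isoform genes did not pass (list median -0.035), and neither did any of 46 genes of a respiratory-chain list (median 0.049; 6 with an unadjusted p under 0.05). The control value of Cox7a1 was identical on all 3 arrays, as were those of Sorl1, Rgs2, Igfbp3 and Nudt7, so the spread of these 5 genes is understated. Counting ties in any group, 6 called genes had one, 1 of them in the HA155 arrays, as did 586 of all genes tested.

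The label of brown adipocyte was checked against its markers. Adipoq (11.75 in controls, 11.91 with HA155), Fabp4 (12.76 and 12.92) and Pparg (10.83 and 10.83) were high in both groups and did not pass. Ucp1 read 5.11, 5.26 and 5.28 in the controls and 5.29, 5.40 and 5.17 with HA155, below the filter in both, as was Dio2. Prdm16 (change -0.03), Ppargc1a (0.17) and Ebf2 (-0.13) did not pass. Cidea, a lipid-droplet protein typical of brown fat, had a mean below the filter over all 9 arrays, to which the low LPA arrays contributed, while its mean over the 6 control and HA155 arrays was above it. Its level was 4.97, 5.10 and 4.67 against 6.53, 6.15 and 6.49. With no intensity filter, under which 86 of 19858 genes passed (0.433%), it differed (change 1.48, adjusted p = 0.00108). The 3 HA155 cultures were all above the filter level for Cidea and the 3 controls all below it. Of 29 brown and beige adipocyte genes tested, Cox7a1, Cox8b and Pdk4 rose (10.3%, against 1.03% of all genes tested) and 26 did not pass (list median 0.033).

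Lipid-droplet and lipid-uptake genes rose in part. Cidec, which joins lipid droplets and enlarges them, read 9.25, 9.19 and 9.19 against 9.93, 9.82 and 9.81 (change 0.65, SE 0.06, adjusted p = 0.000756). Plin4, a droplet coat protein, changed by 0.34 (SE 0.07, adjusted p = 0.0446). Together with Cidec it made up 2 of 23 droplet and lipolysis genes (8.7%, against 1.03% of all genes tested). The fatty acid transporter Cd36 read 12.24, 12.24 and 12.25 against 12.59, 12.53 and 12.56 (change 0.31, SE 0.06, adjusted p = 0.0485), and the lipoprotein receptor Vldlr changed by 0.53 (SE 0.08, adjusted p = 0.00945). All 4 genes were higher in every HA155 culture than in any control. The droplet coat Plin1 (-0.04) and the lipases Lipe (0.07), Pnpla2 (0.20) and Lpl (0.01) did not pass. Cidec passed in all 20 alternative fits, while Plin4 and Cd36 each lost the call in 12 of 20. Vldlr lost it without HA155 culture 5 or 6, where neither it nor Cd36, the 2 rises among 18 fatty acid uptake genes, passed. With control culture 1, 2 or 3 left out, HA155 culture 4, 5 or 6, or LPA culture 7 or 9, 1 of the 2 droplet genes still passed in each fit.

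Of 33 fatty acid oxidation genes tested, 5 rose (15.2%, against 1.03% of all genes tested), none fell and 28 did not pass. The list median was 0.16. A positive change was seen in 27 of the 33, and the groups did not overlap for 24, where the share over all genes was 16.8%. Hadhb, a subunit of the mitochondrial trifunctional protein, read 10.91, 10.83 and 10.95 against 11.34, 11.29 and 11.42 (change 0.45, SE 0.08, adjusted p = 0.0244). Acaa2, the mitochondrial thiolase, read 10.29, 10.23 and 10.20 against 10.66, 10.64 and 10.68 (change 0.42, SE 0.06, adjusted p = 0.00566). For both genes the lowest HA155 culture exceeded the highest control. Acadl (0.35) and Acad11 (0.47), acyl-CoA dehydrogenases, and Ehhadh (0.47), the peroxisomal bifunctional enzyme, were the other 3. The near members Hadha (0.19), Acadm (0.13), Acadvl (0.21) and Cpt2 (0.15) did not pass. The count was 1 without control culture 2, HA155 culture 4 or HA155 culture 5, 2 without control culture 1, control culture 3 or HA155 culture 6, and 10 without LPA culture 8, which enters the shared estimate of spread.

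Peroxisomal alpha-oxidation, which shortens branched fatty acids from plants, was represented outside that list, in genes picked out after their values were seen. Phyh, which carries out the hydroxylation step, read 9.04, 9.10 and 9.10 against 9.62, 9.62 and 9.72 (change 0.57, SE 0.06, adjusted p = 0.00112). Hacl1, the lyase of the next step, changed by 0.32 (SE 0.06, adjusted p = 0.0298), and Nudt7, a peroxisomal enzyme that splits coenzyme A, by 0.36. Pnpla8, a phospholipase of mitochondria and peroxisomes, changed by 0.27, the smallest of the rises. Phyh passed in all 20 alternative fits; Hacl1 lost the call in 7 of 20.

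Fuel-choice enzymes also rose. Pdk4, the kinase that shuts pyruvate dehydrogenase, read 7.50, 7.48 and 7.31 against 7.94, 7.95 and 7.99 (change 0.53, SE 0.11, adjusted p = 0.0429). Mpc1, a subunit of the mitochondrial pyruvate carrier, changed by 0.41 (adjusted p = 0.0393). Acacb, the acetyl-CoA carboxylase whose product restrains fatty acid entry into mitochondria, read 7.74, 7.76 and 7.69 against 8.45, 8.44 and 8.35 (change 0.68, SE 0.06, adjusted p = 0.000609). Each of these genes was higher in every HA155 culture than in any control. Acacb was the gene that rose of 31 lipogenesis genes; Fasn (0.00), Scd1 (0.18) and Elovl6 (0.03) did not pass. Pck1, the gateway enzyme of glyceroneogenesis, read 7.14, 7.21 and 7.21 against 7.88, 8.17 and 8.03 (change 0.84, SE 0.17, adjusted p = 0.045). Gys2, the glycogen synthase of liver and fat, read 5.68, 5.41 and 5.60 against 6.48, 6.56 and 6.75 (change 1.03, SE 0.09, adjusted p = 0.000609), but its means in control (5.56) and LPA (4.88) were both under the filter level, so it was tested only because of its level with HA155. The lowest HA155 culture lay above the highest control for both. Pck1 and Pdk4 lost the call in 8 and 9 of 20 alternative fits, whereas Acacb lost it in none.

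In neighbouring pathways few genes or none passed. All but 1 of 20 genes of the tricarboxylic acid cycle had a positive change (median 0.12) and none passed. Among the 20, 6 had an unadjusted p under 0.05, where the share over all genes tested was 8.11%. Of 20 genes that break down branched-chain amino acids, 18 had a positive change (median 0.19), and Pccb, a subunit of propionyl-CoA carboxylase, was the gene that passed (0.30, SE 0.05, adjusted p = 0.034). Pccb lost the call in 7 of 20 alternative fits, and 5 genes of this list passed without LPA culture 8. None of 22 cholesterol synthesis and uptake genes passed (median 0.16); 11 had an unadjusted p under 0.05. None of 31 insulin-signalling genes passed, the glucose transporter Slc2a4 (0.10) included. An unadjusted p under 0.05 was found for 3 of the 31, a share near the 8.11% over all genes. None of 35 nuclear receptors and adipogenic factors passed, with Cebpa at -0.09; 1 had an unadjusted p under 0.05.

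A list of carboxylesterases and enzymes of small-molecule metabolism held 7 rises among 17 genes tested (41.2%, against 1.03% of all genes tested). Like the other lists, it was chosen with earlier results of these data known, so this share is no independent evidence. Ces1f, a carboxylesterase that hydrolyses neutral lipid, read 7.54, 7.57 and 7.49 against 8.63, 8.51 and 8.73 (change 1.09, SE 0.12, adjusted p = 0.00191). Its relative Ces1d, a triglyceride hydrolase of adipocytes, read 8.69, 8.52 and 8.56 against 9.53, 9.55 and 9.70 (change 1.01, SE 0.09, adjusted p = 0.000609). Lctl, a klotho-family protein, read 6.71, 6.71 and 6.69 against 7.83, 7.82 and 7.83 (change 1.13, SE 0.07, adjusted p = 4.21e-05). All 3 esterase and klotho-family genes were higher in every HA155 culture than in any control, and the replicates of Lctl were nearly equal. Of the 62 rising genes with a promoter sequence, Lctl was the 1 with a match to the PPAR element DR1. That element was searched on both strands as AGGNCA repeated after any 1 base, and 0.4% of all genes with a promoter sequence held it. Phospho1 (0.80), a phosphatase of phosphocholine and phosphoethanolamine, Cyp2f2 (0.56), Aox1 (0.45) and the epoxide hydrolase Ephx2 (0.39) were the others. The count was 3 without control culture 2 or without any of HA155 cultures 4, 5 and 6, and 4 without control culture 3 or LPA culture 7. The Ces1 genes, Amy1, Prl2c5 and several interferon GTPases have close paralogs, and cross-hybridisation was not tested.

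Secreted proteins of fat rose as well. Leptin (Lep), the satiety hormone, read 6.37, 6.37 and 6.34 against 6.96, 7.07 and 7.02 (change 0.66, SE 0.08, adjusted p = 0.00257). Lrg1, a glycoprotein induced by inflammatory cytokines, had the largest rise of all: 5.78, 6.23 and 5.66 against 7.14, 6.84 and 7.17 (change 1.16, SE 0.14, adjusted p = 0.00277). Orm1, the acute-phase orosomucoid, read 9.15, 9.12 and 9.14 against 10.06, 9.96 and 9.98 (change 0.86, SE 0.08, adjusted p = 0.000609). None of these groups overlapped. Haptoglobin (Hp), which binds free haemoglobin, changed by 0.42 (SE 0.05, adjusted p = 0.00453), Saa3, a serum amyloid A, by 0.39, and the metallothionein Mt2 by 0.29. Of 15 acute-phase genes tested these 5 rose (33.3%, against 1.03% of all genes tested) and 10 did not pass (list median 0.20). Lcn2 (0.13), Orm2 (0.05) and Cp (0.22) were among those that did not pass. Lrg1, Orm1 and Hp passed with any 1 culture left out, while the count of 5 dropped to 3 without control culture 2 or 3 or any HA155 culture. Macrophage markers, whose summed intensity was higher with HA155 as given above, moved with these genes, and their part was not tested. None of 17 NF-kappaB targets passed; 1 had an unadjusted p under 0.05.

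Of 36 general adipocyte genes, Pck1, Lep, Cidec, Trarg1, Plin4 and Cd36 rose (16.7%, against 1.03% of all genes tested). None fell and 30 did not pass (list median 0.072). Trarg1, which takes part in GLUT4 traffic, read 8.57, 8.61 and 8.66 against 9.13, 9.14 and 9.27 (change 0.57, SE 0.08, adjusted p = 0.00677). Lep, Cidec and Trarg1 were the 3 that still passed when any control or HA155 culture was left out.

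**Figure D3:**
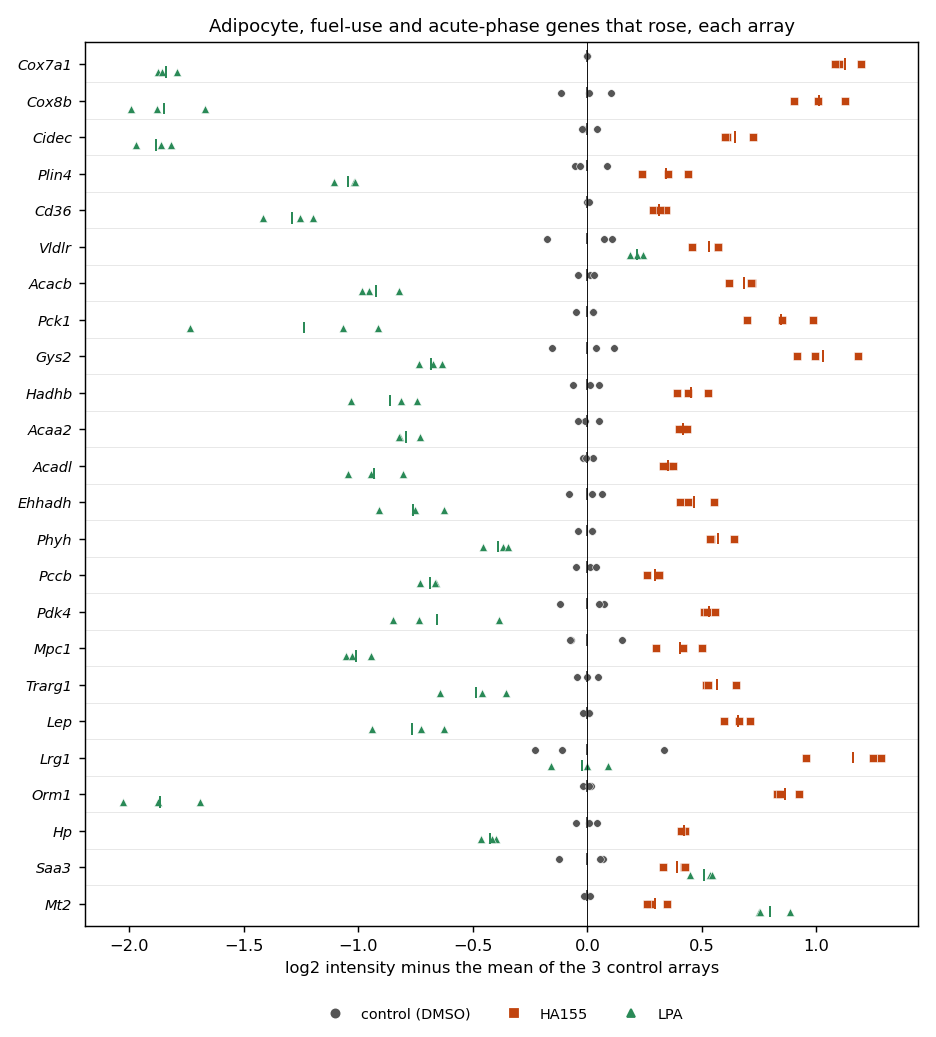
Level of 24 adipocyte, fuel-use and acute-phase genes that rose, on each array (x axis, log2 intensity minus the mean of the 3 control arrays), with grey circles for control, orange squares for HA155, green triangles for LPA and short bars for group means. Every orange square lies right of every grey circle of its gene, from 0.29 on average for Mt2 to 1.16 for Lrg1.

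Genes of immature stroma and matrix were among the falls. Dlk1, or Pref-1, which holds preadipocytes undifferentiated, read 10.21, 10.28 and 10.26 against 9.34, 9.59 and 9.35 (change -0.82, SE 0.08, adjusted p = 0.000609). Twist2, a mesenchymal transcription factor, changed by -0.33 (SE 0.06, adjusted p = 0.038). Dlk1 and Twist2 were 2 of 28 preadipocyte and mesenchymal genes (7.14%, against 1.03% of all genes tested). Of the 28, 22 had a negative change (median -0.10). Dlk1 is imprinted and shares its locus with the non-coding RNA Meg3, which read 10.41, 10.31 and 10.35 against 9.95, 10.05 and 9.86 (change -0.40, SE 0.07, adjusted p = 0.0241). Both genes were lower in every HA155 culture. Of 20 imprinted genes tested these 2 fell (10%, against 1.03% of all genes tested) and 17 had a negative change (median -0.20). Mest (-0.37), Slc38a4 (-0.45), Plagl1 (-0.32) and Igf2 (-0.25) did not pass. Meg3 and Twist2 each lost the call without at least 5 of the 6 control and HA155 cultures in turn. Dlk1 fell in all 20 alternative fits, and 5 imprinted genes fell without LPA culture 8.

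Of 56 matrix genes tested, elastin (Eln, -0.33, SE 0.05, adjusted p = 0.0227) and the elastic-fibre protein Mfap4 (-0.36, SE 0.07, adjusted p = 0.0392) fell. That was 3.57% of the list, against 1.03% of all genes tested. A negative change was seen in 44 of the 56, with a median of -0.10; Col1a1 (-0.15), Lum (-0.31) and Fn1 (-0.02) did not pass. Neither Eln nor Mfap4 passed without control culture 2 or 3, or without HA155 culture 4, 5 or 6. Of 16 genes of the IGF axis, the binding proteins Igfbp5 and Igfbp3 fell (12.5%, against 1.03% of all genes tested). Igfbp5 read 8.88, 8.76 and 8.72 against 8.19, 8.21 and 8.35 (change -0.54, SE 0.08, adjusted p = 0.0146), and Igfbp3 changed by -0.44. Neither passed without control culture 1 or 2, or without HA155 culture 4 or 5. The basement-membrane protein Nid2 (-0.36) and the pericyte and endothelial adhesion molecule Mcam (-0.32) fell too.

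A further set of falls, picked out after the values were seen, concerns peptide hormones that act on vessels and salt balance. Ace, the angiotensin-converting enzyme, read 8.55, 8.55 and 8.54 against 7.95, 8.00 and 7.98 (change -0.57, SE 0.10, adjusted p = 0.0235). Agtr2 and Agtr1a, the angiotensin II receptors, changed by -0.50 (SE 0.06, adjusted p = 0.00191) and -0.41 (SE 0.08, adjusted p = 0.0392). Adm, the vasodilator adrenomedullin, read 10.11, 10.14 and 9.94 against 9.38, 9.41 and 9.51 (change -0.63, SE 0.07, adjusted p = 0.00136). The enzyme, both receptors and Adm were lower in every HA155 culture than in any control. Npr3, the natriuretic peptide clearance receptor, changed by -0.27, and Gucy1a1, a subunit of the nitric oxide receptor, by -0.40. In the other direction, Kng1, the precursor of bradykinin, changed by 0.55 (SE 0.09, adjusted p = 0.0168), and the peptidase Mme, or neprilysin, by 0.38 (SE 0.07, adjusted p = 0.0392). Agtr2 and Adm passed in all 20 alternative fits; Ace lost the call without each of the 6 control and HA155 cultures in turn, the highest adjusted p being 0.121.

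Other falls that passed in every alternative fit that tested them were Kcne4 (-0.66), a potassium-channel subunit, Plac8 (-0.71), a cysteine-rich protein with a part in brown fat differentiation, Scg2 (-0.60), a secretogranin, and Ldb2 (-0.58), a LIM-domain cofactor. Plac8 read 7.12, 7.11 and 6.99 against 6.25, 6.52 and 6.35 (SE 0.09, adjusted p = 0.00514). Kcne4 read 8.36, 8.21 and 8.35 against 7.50, 7.82 and 7.63 (SE 0.09, adjusted p = 0.00541). Other rises with that standing were Tgm2 (0.65), a transglutaminase, Sorl1 (0.57), a sorting receptor, Rgs2 (0.42), a brake on G protein signalling, Amy1 (0.78), an amylase, Sgcd (0.65), a sarcoglycan, and Tspan15 (0.71), a tetraspanin. Ctsc (0.74), the lysosomal dipeptidyl peptidase, Prl2c5 (0.69), of the placental prolactin family, and Rny1 (-0.61), a small non-coding RNA, passed with all arrays and lost the call in 4, 10 and 10 of the alternative fits. Tgm2 read 7.96, 8.09 and 8.09 against 8.61, 8.70 and 8.79 (SE 0.07, adjusted p = 0.00129). For each of these 3 genes with array values, the groups did not overlap.

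The pathway that HA155 targets showed no call among its tested genes. Of 18 tested genes for LPA and sphingosine phosphate receptors and enzymes, none passed. A negative change was seen in 15 of them and a positive one in 3 (median -0.036). The 1 with an unadjusted p under 0.05 was Pla1a, a phospholipase A that can release lysophospholipids, at -0.34 (adjusted p = 0.058). The receptors Lpar1 (-0.10), Lpar2 (-0.03), Lpar4 (-0.07) and Lpar6 (0.09) did not pass, nor did Plpp3 (-0.01), a phosphatase that degrades LPA. Enpp2, which encodes autotaxin, was not analysed here. None of 23 immediate-early genes and none of 29 contractile genes of the SRF programme, both known to respond to LPA, passed. An unadjusted p under 0.05 was found for 1 and 2 of them, where the share over all genes was 8.11%. None of 33 proliferation genes passed (median 0.086; 4 with an unadjusted p under 0.05).

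**Figure D4:**
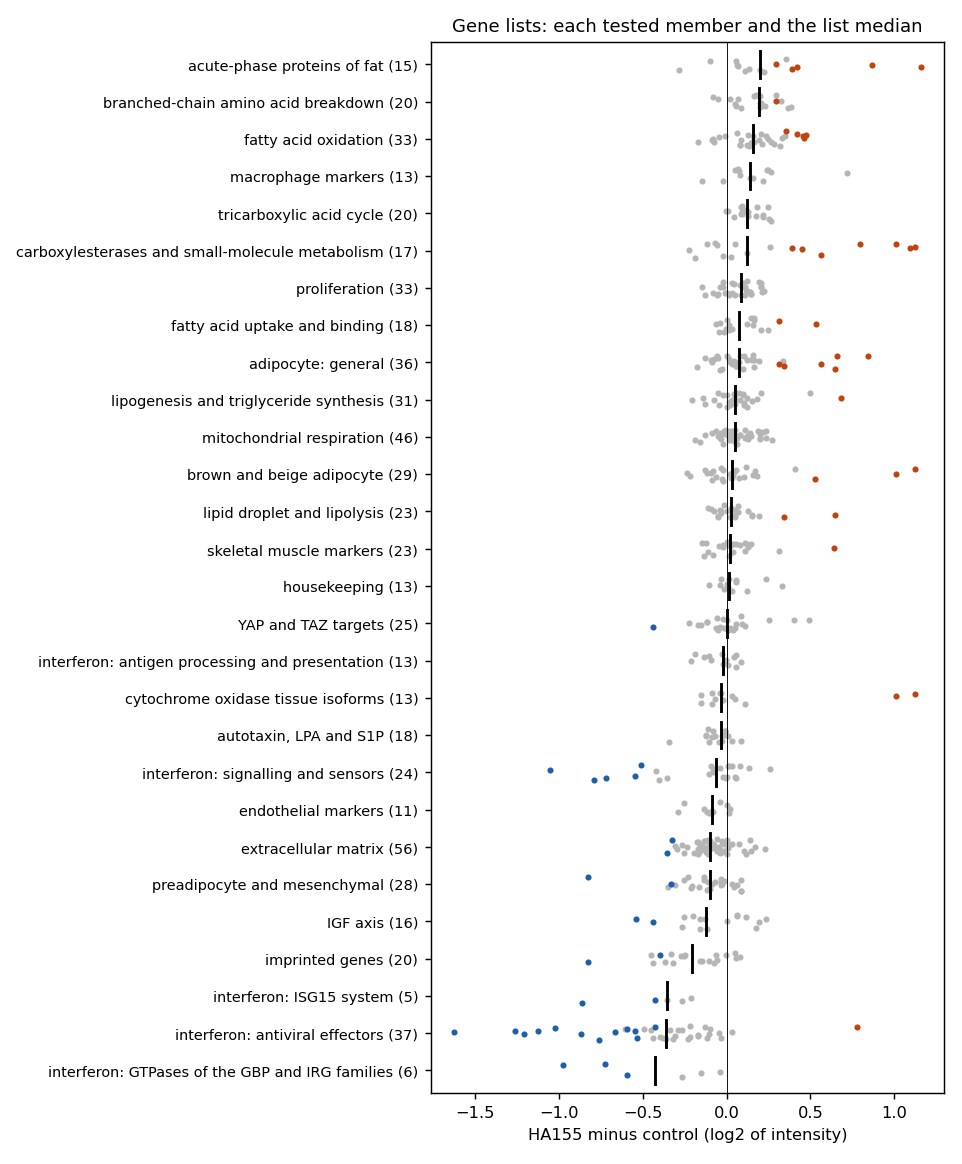
Change with HA155 (x axis, log2 of intensity, HA155 minus control) of each tested member of 28 gene lists, with the number tested in brackets, orange for members that rose, blue for members that fell, grey for the rest and a black bar at the list median. Among the 28 of 48 lists drawn, the interferon effector, ISG15 and GTPase lists have the lowest medians, and the acute-phase, branched-chain amino acid and fatty acid oxidation lists the highest, at 0.20, 0.19 and 0.16.

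The LPA cultures, given the product of the enzyme that HA155 blocks, were set against the same 3 control arrays, so the comparisons share them and the values are given side by side with no test between them. With LPA, 3066 genes passed the same threshold (23%). The genes below are examples chosen after their values were seen, and their numbers are no measure of how many genes do the same. Cox7a1 changed by 1.13 with HA155 and by -1.84 with LPA, and Cox8b by 1.01 and -1.85. Cidec changed by 0.65 and -1.88, Lep by 0.66 and -0.76, and Ace by -0.57 and 0.94. In these examples the signs were opposite in the 2 treatments. Myh1, a fast skeletal myosin and the gene that rose of 23 muscle markers, changed by 0.64 and 0.98, the chemokine Ccl9 by 0.59 and 1.27, and Mcam by -0.32 and -0.96. There the signs were the same in both. Lrg1 changed by 1.16 and -0.02, Ifit3 by -1.02 and -0.00, and Igfbp5 by -0.54 and -0.00.

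The size of the called set depended on which cultures were kept. It was 78 genes without control culture 1, 39 without control culture 2 and 75 without control culture 3. Without HA155 cultures 4, 5 and 6 in turn it was 44, 47 and 56. Leaving out LPA culture 8, the array with the lowest mean correlation with its own group (0.988), gave 232 genes (137 up, 95 down), and leaving out LPA culture 7 gave 99 with 52 rises. Rises without the control cultures in turn numbered 55, 27 and 34, and without the HA155 cultures 28, 28 and 29; falls numbered 23, 12 and 41, and 16, 19 and 27. Of the 138 genes, 35 passed in every alternative fit that tested them (25 rises and 10 falls), and none reversed. Correlations of the 6 arrays were 0.994 to 0.997 within groups and 0.994 to 0.995 between them. The labels and files name no date or batch, so a batch that followed the groups and the treatment cannot be told apart.

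**Figure D5:**
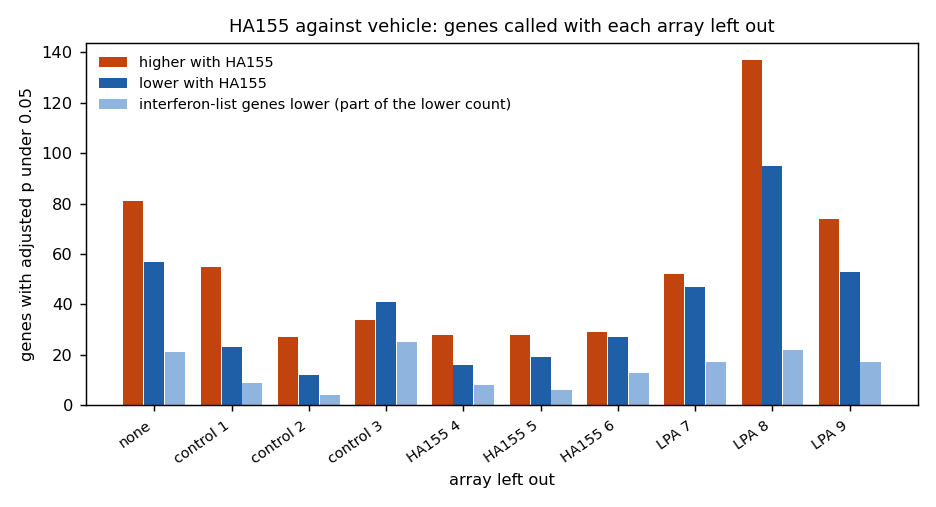
Genes with an adjusted p under 0.05 for HA155 against control (y axis, count) when no array or the named array (x axis) was left out of the fit, in orange for higher, dark blue for lower and light blue for lower genes of the interferon lists. The counts are 81, 57 and 21 with all arrays, and 27, 12 and 4 without control culture 2.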

How the data were processed

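RNA of 9 primary brown adipose cultures was hybridised to a 1-colour whole-transcript mouse array. The deposited values are intensities on a linear scale, 1 per probe set, which the authors normalized with RMA, per the submitters' processing notes; the notes used here name no build. The intensities were turned into log2 values here with no further scaling. Of 35432 probe sets, 21706 were named by 1 symbol in the platform annotation, 1605 by several and 12121 by none; 21615 were matched to RefSeq names. The probe set with the highest mean stood for a gene, and 6523 genes whose mean fell under the 40th percentile of the probe sets were dropped as dim. Limma 3.58.1 in R 4.3.3 (lmFit, eBayes) was fitted to the 9 arrays with a mean for each of the 3 groups (6 residual degrees of freedom, prior 4.82), and p-values were Benjamini-Hochberg adjusted over all 13335 genes at 0.05. The titles give 3 samples per condition, numbered as subjects 1 to 9, and what a subject is, an animal or a culture, is not stated. The p-values measure the spread between samples so numbered, and whether these are independent animals is not known. Array medians of intensity were 70.7 to 72.8.

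The members and the 48 gene lists were chosen with earlier results of these data known. Any gene past the threshold could be named, the 20 largest rises and the 20 largest falls among them, with the 4 members of smallest p of each list and a set of marker genes. Other members named as not passing were chosen after their values were seen. Promoters were the 250 bases before the RefSeq start in GRCm38.p6. The procedure was tested on simulated data. Alternatives changed the arrays fitted, the filter, the probe-set rule, the scaling, the weights and the replicates. Enpp2, Isg15 and Lpar5 had no probe set named by a single gene among those used and were not analysed here.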

Additional observations from a re-analysis of the deposited data

Results flagged for a closer look

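Probe sets that the annotation ties to no single gene were outside the main comparison. When all probe sets above the same filter were tested together with limma, 21 of 5774 with no gene symbol passed an adjusted p of 0.05 (0.364%), 5 higher and 16 lower with HA155, with changes from -1.24 to 0.75. Among 907 with several symbols, 4 passed (0.441%), 2 in each direction, from -0.78 to 0.97. The share for probe sets with 1 symbol in that fit was 0.35%, so these shares are close to the background. Several of the 16 lower probe sets have identifiers close to those of the Rnf213 probe sets. Whether they measure the same locus more than once was not tested.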

How the results depend on the processing

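With each culture left out in turn, the genes called for HA155 numbered 39 to 232 against 138, the rises 27 to 137 against 81, the falls 12 to 95 against 57, and the interferon-list falls 4 to 25 against 21. With no intensity filter 86 genes were called (51 rose, 35 fell); with a weight for each group's spread 255 were (146 rose, 109 fell); and with every probe set tested as such 76 were. The other alternatives (control and HA155 arrays alone, filters at the 20th and 60th percentiles, mean of probe sets, 16 added to the intensity, equal medians, repeated quantile normalization, a mean-dependent prior, tied genes left out) gave 102 to 206 calls, within 1.5 times. No called gene changed sign in any of them; 103 of 138 lost the call in at least 1. Under the alternative scalings the median of all genes moved by at most 0.02. No paired analysis was run, because the labels name no pairing and the groups share no replicate numbers. The cause of these shifts was not tested. Genes near the filter, such as Cidea and Gys2, are limited by signal over background.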

Other observations

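Further genes that rose with HA155 belong to mitochondrial upkeep and cofactor metabolism and were picked out after their values were seen. Chchd10, a protein of the mitochondrial intermembrane space, read 8.72, 8.59 and 8.70 in the controls and 9.10, 9.16 and 9.22 with HA155 (change 0.49, SE 0.08, limma adjusted p = 0.024). Coq8a, which supports coenzyme Q synthesis, changed by 0.40 (SE 0.07, adjusted p = 0.024), Dnajc15, a co-chaperone of the inner membrane, by 0.47 (SE 0.07, adjusted p = 0.0138), and Nampt, the gateway enzyme of NAD salvage, by 0.32 (SE 0.06, adjusted p = 0.0413). For each of these 4 genes every HA155 culture lay above every control. Aspa, which splits N-acetylaspartate into acetate and aspartate, read 7.03, 6.91 and 6.91 against 7.32, 7.49 and 7.56 (change 0.51, SE 0.07, adjusted p = 0.00839). Ddo (0.58), the D-aspartate oxidase, Aldh1l1 (0.32), of folate metabolism, and Gpd2 (0.34), the mitochondrial glycerol phosphate dehydrogenase, rose as well. Sucnr1, the succinate receptor, changed by 0.46 (SE 0.08, adjusted p = 0.0331).

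Of 6523 genes below the intensity filter over all 9 arrays, 5 passed in the fit with no filter, where 0.433% of all 19858 genes passed. They were Cidea, Sh2d4a, Nrg4, Akr1c13 and Flacc1, and all 5 were higher with HA155. Their control means ran from 4.21 for Akr1c13 to 5.51 for Nrg4, and signal this dim leaves little room for a fall. Nrg4 is a growth factor that brown fat secretes. For Ivns1abp, which rose by 0.41, a second probe set changed by -0.09, so its probe sets disagreed.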
